A study of Mus musculus with 4 samples.

Results

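Zeb1 binding was examined at 10 genes of Nodal signalling and of the mesendoderm and organizer, namely Nodal, Tdgf1, Lefty1, Lefty2, Cer1, Gsc, Mixl1, Lhx1, Hhex and Cxcr4. A gene was taken as having a peak where the deposited list of Zeb1 peaks gives its symbol as the assigned gene. The list names 12271 genes for 17435 peaks, and 8 of the 10 genes were among them, with 12 peaks together. The data are chromatin immunoprecipitation followed by sequencing (ChIP-seq), which recovers DNA fragments bound by a protein, from mESC of the D3 line, an established mouse embryonic stem cell line. There were 3 Zeb1 ChIP libraries, made with 8 μg of an antibody against Zeb1, and 1 input library without antibody that gives the background. All 4 came from cells in ground state medium (GS), a serum-free medium in which MEK was inhibited with PD0325901 at 1 μM and GSK-3 with CHIR99021 at 3 μM, beside 20 ng/mL of LIF. Chromatin was fixed with 1% formaldehyde and sheared to about 200 bp. No other cell line, medium or genotype was compared. For each peak the list gives 3 of the authors' means, the reads in the ChIP libraries (treatment reads), the reads in the input (input reads) and the enrichment of the former over the latter after scaling for mapped reads. The enrichment is therefore not the quotient of the 2 read values. It was a median of 2.07 times that quotient over the list, and between 1.8 and 2.19 times in the 12 peaks. With no value for a single library, the spread between libraries was unmeasurable, and differences between peaks are described without an SD or a test. The depth of each library is unknown from the list. The list holds no expression values, so the identity of the cells could not be checked against marker genes.

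Nodal is a secreted ligand of the TGF-beta family that patterns the early embryo. It acts through activin receptors together with a co-receptor of the Cripto family, and its signal reaches the nucleus through Smad2 and Smad3, which bind DNA with partners such as Foxh1. Targets of the pathway include its own inhibitors and the transcription factors of mesendoderm, the common precursor of mesoderm and endoderm. Zeb1 is a zinc finger factor that binds E-boxes of the sequence CACCTG and is best known as a repressor in the epithelial to mesenchymal transition.

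The sequences around 3 start sites are shown first because they hold the letters searched for and differ in whether a peak lies over them. They run from 150 bases before to 20 after the TSS, 5′ to 3′ on the strand of the gene, are credited to RefSeq on GRCm38.p6, and have matches in capitals. The form searched was NNNACCTG with C or T at the first and the third base and any base between them, on both strands, and also the core E-box CACCTG, which lies inside the form when the third base is C. Nodal is at chr10:61417822-61417991 (plus strand), Cer1 at chr4:82885132-82885301 (minus strand) and Tdgf1 at chr9:110946139-110946308 (minus strand).
Nodal: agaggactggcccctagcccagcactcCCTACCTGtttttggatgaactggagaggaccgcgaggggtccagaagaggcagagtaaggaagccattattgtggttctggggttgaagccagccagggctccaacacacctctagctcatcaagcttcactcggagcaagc
Cer1: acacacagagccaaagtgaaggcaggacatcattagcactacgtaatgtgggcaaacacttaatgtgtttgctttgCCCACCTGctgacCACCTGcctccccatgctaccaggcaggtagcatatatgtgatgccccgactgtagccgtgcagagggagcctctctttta
Tdgf1: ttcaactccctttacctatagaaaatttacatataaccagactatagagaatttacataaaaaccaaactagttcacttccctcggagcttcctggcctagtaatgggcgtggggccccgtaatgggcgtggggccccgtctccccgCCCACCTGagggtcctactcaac

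Of the 10 genes, 8 had an assigned peak, beside 51.4% of the 21774 protein-coding genes of the reference. The same 8 genes had a peak centred within 5 kb of the TSS, beside 43.5% of protein-coding genes. The start of the gene in the reference, taken as the outermost base of its annotation, lay inside a peak in 7 of 10, all but Lefty1, Tdgf1 and Cer1, beside 41.9%. Of the 12 peaks, 8 were within 5 kb of the TSS, and all 8 were centred downstream of it, as were 74.8% of the 10698 peaks within 5 kb in the list. Enrichment in the 12 peaks had a median of 6.08, beside 6.5 over the whole list, and 6 of the 12 were above the list's median. Within 5 kb, the median was 6.08 for the 8 peaks and 6.74 for the list, and 3 of the 8 were above the latter. The peaks were long. Their median length was 2575 bp, beside 1850 bp in the list, and 10 of 12 were above the list's median length.

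**Figure D1:**
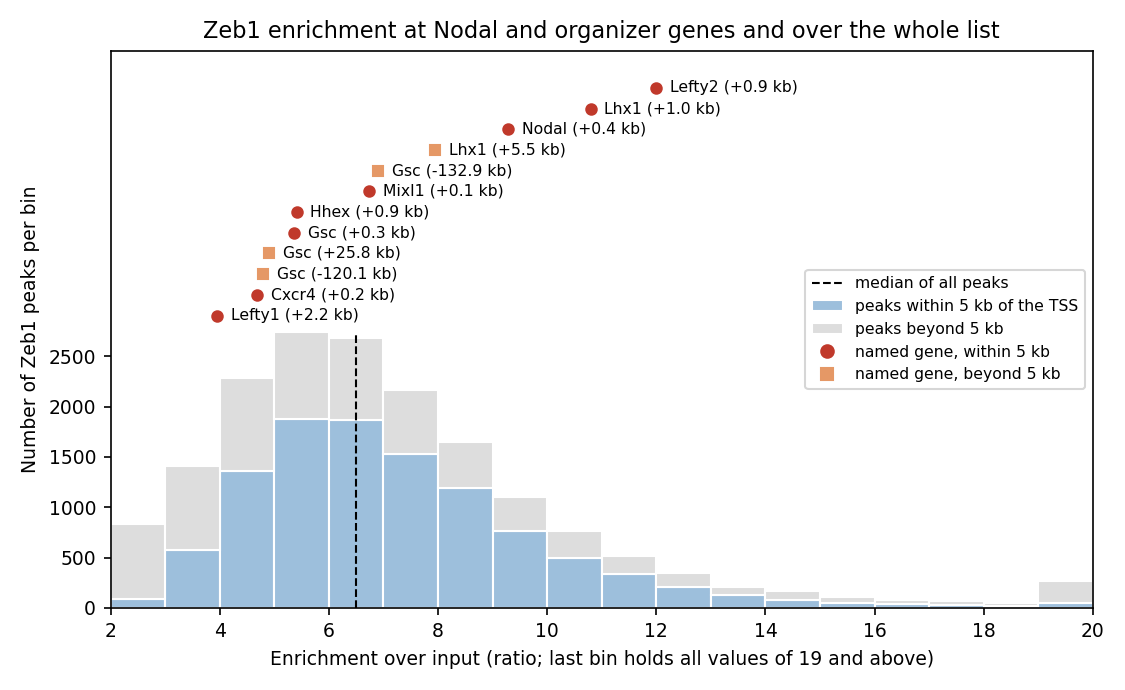
Bars count all peaks of the list by enrichment over input (a ratio), in bins of width 1 with all values of 19 and above in the last, split by distance to the TSS, and the dashed line is the list's median of 6.5. Points mark the 12 peaks of Nodal and organizer genes, placed by enrichment only and stacked for legibility, with the distance of the peak centre from the TSS. They run from 3.95 at Lefty1 to 12 at Lefty2, with 6 on each side of the median.

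At Nodal, the ligand of the pathway, 1 peak of 3100 bp on Chr. 10 from 61416801 to 61419900 spanned the TSS, with 1171 bp before it and 1928 bp after it. Its centre was 378 bp downstream of the TSS, in the coding part of exon 1 of 3. With 74.6 treatment against 17.6 input reads, its enrichment of 9.29 was higher than that of 80.9% of all peaks. Per kb it had 24.1 treatment reads, close to the list's median of 25.1, and 5.67 input reads, beside a median of 8.07. Values per kb are reads divided by the listed length and may not be a density over the whole peak. The reads are means whose divisor differs between peaks, such as 7 at Nodal and 12 at the Gsc and Lhx1 start sites (peaks of the list with these divisors had median lengths of 2050 and 4550 bp), and the sources used here state an average over unified peaks per sample without giving the reason for such divisors. The Nodal peak held 6 matches of the Zeb1 form, the most among the 12 peaks, and 4 of them lay before the TSS, the nearest 116 bp from it and shown above. In peaks within 10% of its length, the median was 2 matches.

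Tdgf1 encodes Cripto, the co-receptor of Nodal, and had no assigned peak. The closest one, assigned to Lrrc2, occupied positions 110953101 to 110954500 of Chr. 9, with its centre 7642 bp upstream of the Tdgf1 TSS. It was weak, at 25.5 treatment against 17.5 input reads, and its enrichment of 3.5 was above that of only 8.08% of peaks. The letters CCCACCTG spanned the TSS of Tdgf1, as printed above.

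The secreted inhibitors were Lefty1 and Lefty2, which block the receptor complex, and Cer1, which binds Nodal itself. Lefty2 had the highest enrichment of the 12 peaks. Its peak on Chr. 1 from 180892651 to 180895400 spanned the TSS and had 72.1 treatment reads and 13.1 input reads. Their unscaled ratio was 5.49, and the listed enrichment was 12, above 92.6% of the list. The Lefty1 peak, on Chr. 1 from 180936001 to 180938400, had the lowest enrichment of the 12. It had 56 treatment reads and 26.5 input reads, with an enrichment of 3.95, above 12.4% of the list. Both genes lie on the same strand within 50 kb of each other, and their peaks lay in different places. The Lefty2 peak overlapped exons 1 to 3 of 4 and its centre was in intron 1, while the Lefty1 peak began after the TSS, overlapped exons 2 to 4 of 4, had its centre in coding sequence of exon 3 and covered 71% of the gene. In reads per kb the treatment values were near each other, 26.2 at Lefty2 and 23.3 at Lefty1, whereas input reads per kb were 4.78 and 11. The divisors of these means differed, 7 at Lefty2 and 2 at Lefty1.

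The Lefty genes share sequence, and the authors kept unique alignments only. Of all words of 50 bases in the Lefty1 peak, 15.1% were found at 2 or more places on Chr. 1 to 19, X and Y. This was the highest share among the 12 peaks. The share was 7.66% in the Lefty2 peak and 7.96% in the Nodal peak. In the gene of Tdgf1, which had no assigned peak, it was 7.37%. Bases in 50-base words that the 2 genes have in common came to 772 bp in each gene. All 772 bp of Lefty1 lay inside its peak, and 501 bp of Lefty2 lay inside its own. The part of shared sequence in the read numbers of either peak was not tested. Cer1, the remaining inhibitor, had no assigned peak. The nearest peak to its TSS was 25676 bp downstream, at the start of Zdhhc21, with an enrichment of 6.65.

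Gsc, a homeobox repressor and marker of the organizer, had 4 assigned peaks, which 1.71% of protein-coding genes reached or exceeded. The peak over the gene, on Chr. 12 from 104470651 to 104475150, was 4500 bp long and took in all 3 exons. It had 113 treatment reads, more than 95.3% of the list, and also 37.9 input reads, more than 96.8%, so that its enrichment was 5.36, above 31.7%. The other 3 peaks were intergenic. A peak from 104446501 to 104448450, centred 25761 bp downstream of the TSS on a SINE of the B4A family, had 32 treatment reads and an enrichment of 4.9. A peak 120064 bp upstream had 31 treatment reads and an enrichment of 4.8, and another, 132914 bp upstream, had 24.5 treatment reads and an enrichment of 6.9. All 3 had fewer treatment reads than the list's median of 47.4. A gene is assigned by the nearest TSS, so at such distances the assignment says only that no other TSS was closer.

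Mixl1, a homeobox factor of mesendoderm, had the most treatment reads per kb of listed length among the 12 peaks. Its peak of 1800 bp on Chr. 1 from 180696051 to 180697850 was centred 84 bp downstream of the TSS in exon 1 of 2. It had 61.4 treatment reads and 19.9 input reads, with 34.1 treatment reads per kb, above 83.8% of the list, and an enrichment of 6.74, above 53.5%.

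Lhx1, a LIM homeobox factor needed for head organizer function, had 2 peaks. The longer, 4750 bp on Chr. 11 from 84522151 to 84526900, spanned the TSS and was centred in the 5′ UTR of exon 1 of 5, with 81.2 treatment against 15.9 input reads and an enrichment of 10.8, above 89% of the list. Over its length this came to 17.1 treatment reads per kb, above only 11.1% of the list, and 3.35 input reads per kb, the lowest of the 12 peaks. The second, from 84519051 to 84520950, was centred in intron 4 of 4 and overlapped exons 4 and 5. It had 48 treatment reads, 25.3 per kb, and an enrichment of 7.95. The divisor of its mean reads was 2, and that of the longer Lhx1 peak was 12. Hhex, a homeobox factor of anterior endoderm, had 1 peak of 4200 bp on Chr. 19 from 37433651 to 37437850, with 97.9 treatment against 37.4 input reads and an enrichment of 5.41. Like the Gsc peak it was high in both treatment and input reads, and its enrichment was above 32.4% of the list.

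Cxcr4, a chemokine receptor carried by definitive endoderm, had 1 peak on Chr. 1 from 128590401 to 128593850, centred 174 bp downstream of the TSS in the single intron. At 50.6 treatment against 22.6 input reads, its enrichment of 4.69 was above 21.5% of the list. Its 14.7 treatment reads per kb were the lowest of the 12 peaks.

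**Figure D2:**
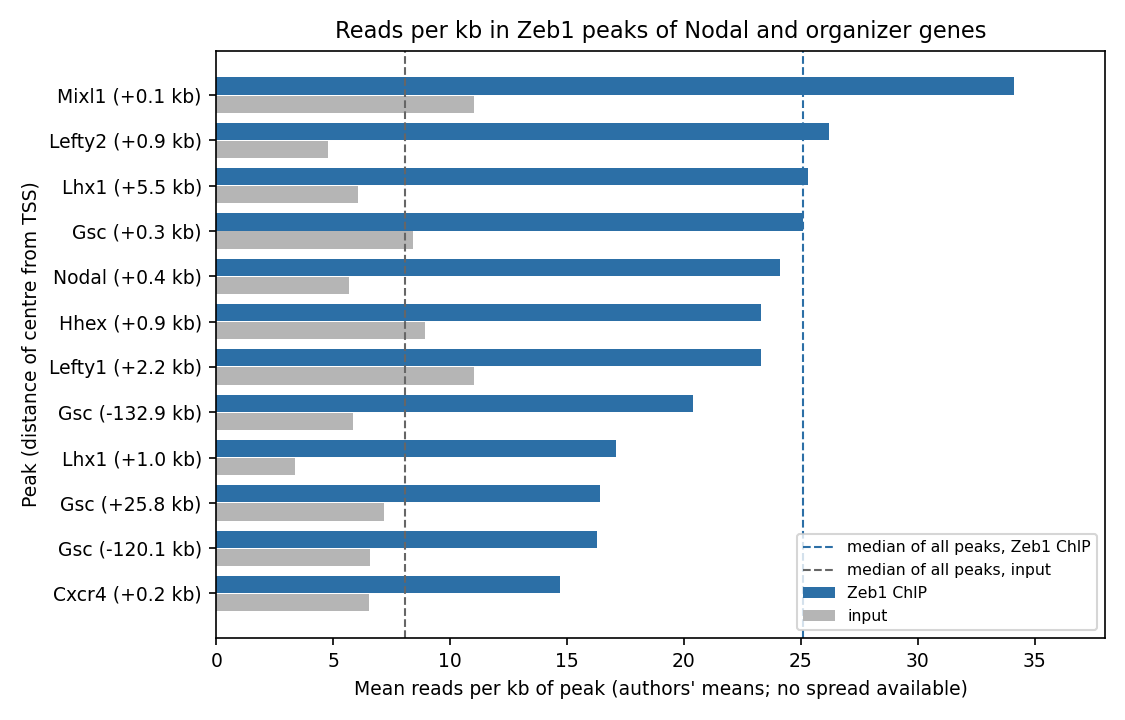
Mean reads per kb of peak in the Zeb1 ChIP libraries (blue) and the input (grey) for each of the 12 peaks, named by gene and distance of the peak centre from the TSS, with the medians of all peaks dashed at 25.1 and 8.07. No spread between libraries is available. Mixl1 is highest at 34.1 and Cxcr4 lowest at 14.7 treatment reads per kb, and 3 of the 12 peaks lie above the list's median.

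The order of the genes thus differed between the measures. By treatment reads the peaks of Gsc, Hhex and Lhx1 over the TSS came first, and these were also the 3 longest. Per kb, Mixl1, Lefty2 and the second Lhx1 peak came first, and 3 of 12 peaks were above the list's median. By enrichment, Lefty2, Lhx1 and Nodal came first. None of these orders could be set against the variation between libraries, and the part of the differing divisors in any of them was not tested. Enrichment differed by divisor too. Its median over the list was 5.77 at a divisor of 1, 5.7 at 2, 7.22 at 7 and 7.88 at 12.

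The Zeb1 form occurred in 10 of the 12 peaks, beside 76.8% of all peaks, and CACCTG occurred in 10 of 12, beside 82.1%. Both were missing from the second Lhx1 peak and the most distant Gsc peak. Among peaks within 10% of the length of each, between 61.1% and 96.3% held the form, the lowest share for the shortest of the 12 and the highest for the longest. In the central 200 bp, where 16.7% of all peaks had the form, 1 of the 12 peaks had it, the intergenic Gsc peak downstream of the gene. That match, 43 bp from the peak centre, is shown in capitals with 40 bases on either side, at chr12:104447475-104447562 on the plus strand of GRCm38.p6.
Gsc, downstream peak: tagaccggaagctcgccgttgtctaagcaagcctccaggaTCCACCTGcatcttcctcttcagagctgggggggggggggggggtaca

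The RefSeq table of 300-base promoters, from 250 bases before to 50 after the TSS, matched 7 of the 10 genes, all but Lefty1, Lefty2 and Mixl1. The form was present in 3 of the 7, beside 16.9% of the 32851 promoters in the table, and CACCTG was present in Cer1 and Tdgf1, beside 20.2%. Both promoters without a peak, those of Cer1 and Tdgf1, held the form, and of the 5 under a peak only that of Nodal did. Over the whole promoter table the difference was small, with a TSS under a peak in 28.6% of promoters with the form and 33.8% of those without. A match of these letters is a description of the sequence and not a binding site.

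Letters bound by the factors that act downstream of Nodal were searched in the same peaks. TGTGGATT, letters that Foxh1 is known to bind, occurred in 3 of the 12 peaks, those over the TSS of Nodal, Gsc and Mixl1, beside 5.14% of all peaks. Among peaks within 10% of their lengths, the share was 5.91% for Nodal, 11.4% for Gsc and 4.23% for Mixl1. The palindrome GTCTAGAC bound by Smad3 and Smad4 occurred in none of the 12, beside 1.63% of all peaks. None of the 3 matches overlapped a match of the Zeb1 form. The Nodal match was in intron 1, 1327 bp downstream of the TSS, and the Gsc and Mixl1 matches were 346 and 239 bp upstream. The first 2 are shown with the letters in capitals on the plus strand of GRCm38.p6, where the Nodal match reads as its reverse complement, at chr10:61419259-61419346 and chr12:104473542-104473629.
Nodal, intron 1: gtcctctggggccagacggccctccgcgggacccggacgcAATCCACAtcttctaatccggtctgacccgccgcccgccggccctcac
Gsc, upstream: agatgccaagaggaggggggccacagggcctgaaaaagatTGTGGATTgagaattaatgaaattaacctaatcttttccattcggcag

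**Figure D3:**
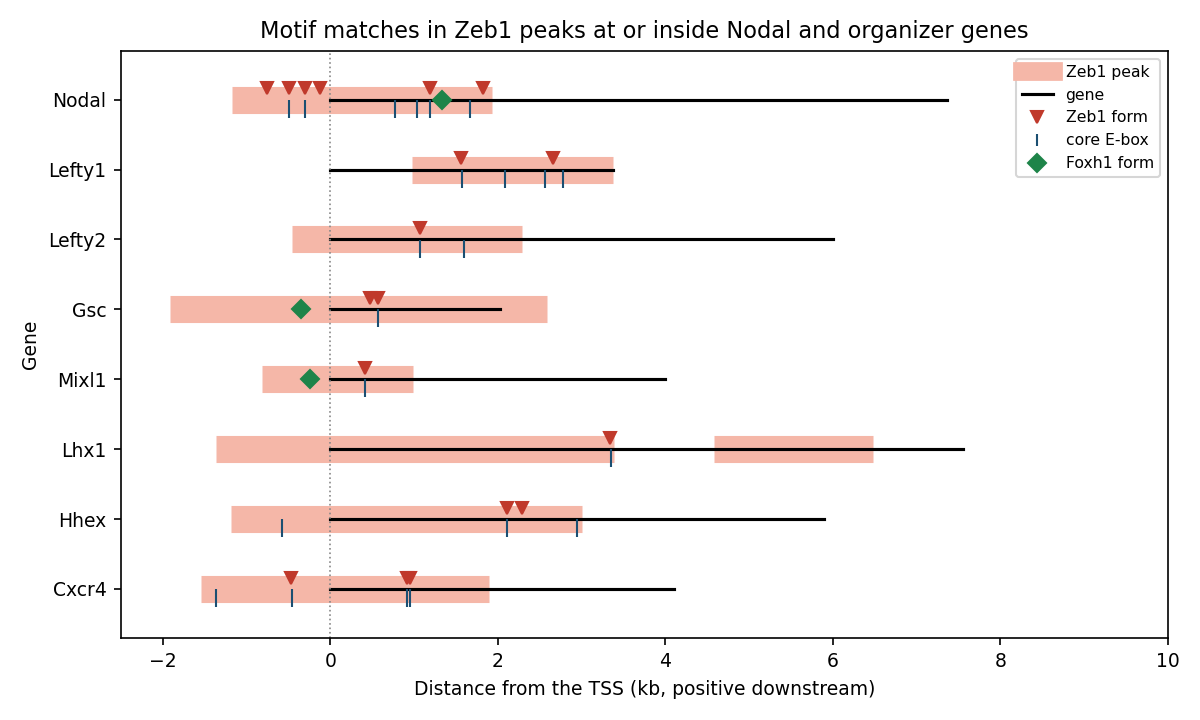
Zeb1 peaks (shaded) on the 8 genes with a peak, drawn by distance from the TSS in kb, with the gene as a line and matches of the Zeb1 form, the core E-box and the Foxh1 form as symbols. The 3 distant Gsc peaks are outside the range drawn. Nodal has 6 matches of the Zeb1 form, the Lefty1 peak starts after the TSS, and the second Lhx1 peak holds no match.

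Peaks assigned to other genes also lay within 50 kb of the start sites. Protein-coding genes had a median of 1 peak centred in this range, with quartiles of 0 and 3, and the 10 genes had between 1 and 6. Lefty2 had 6 and Lefty1 had 4, both above the upper quartile, and the other 8 genes had between 1 and 3. The Lefty genes lie within 50 kb of each other, so their ranges overlap and their counts share peaks. Around Nodal, the peaks of Pald1 and Eif4ebp2 lay 34747 bp upstream and 34503 bp downstream, with enrichments of 4.95 and 5.53, below the 9.29 of Nodal. The Aatf peak 12059 bp downstream of the Lhx1 TSS had an enrichment of 5.76, and the Acbd3 peak 29041 bp upstream of Mixl1 had 4.4. Hhex, Cxcr4 and Gsc had no peak of another gene in this range.

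**Figure D4:**
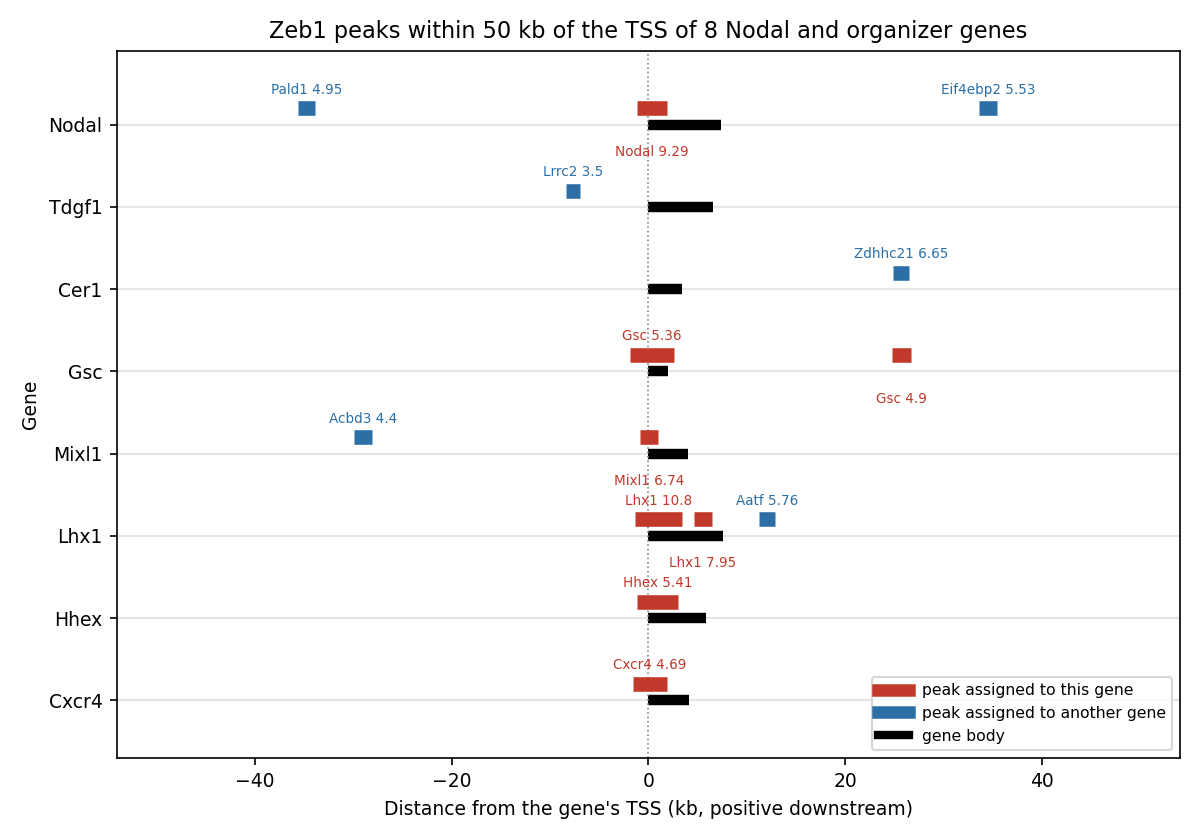
Peaks centred within 50 kb of the TSS of the 8 genes other than Lefty1 and Lefty2, drawn to scale by distance from the TSS in kb, positive downstream, with the assigned gene and the enrichment beside each. Tdgf1 and Cer1 have no peak of their own (red) and 1 each of another gene (blue), and Nodal and Lhx1 have the most peaks in range, 3 each.

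Of 20 other genes of the Nodal and activin pathway, 14 had an assigned peak, all 14 within 5 kb of the TSS, beside 51.4% and 43.5% of protein-coding genes. Their highest enrichment within 5 kb had a median of 7.11, beside 6.84 over all genes with such a peak and 6.08 over the 8 genes described here. The highest value was an enrichment of 16.7 at Foxh1, the DNA-binding partner of Smad2 and Smad3, in a peak centred 2898 bp from the TSS with 40.4 treatment against 4.8 input reads. The annotated start of the Foxh1 gene lay inside another peak, assigned to Ppp1r16a, with an enrichment of 5.5. Smad3 followed with 9.67, the inhibitory Smad7 with 9.51, the corepressor gene Ski with 8.47 and the ligand gene Gdf1 with 7.86. The 6 genes without an assigned peak were Gdf3, Cfc1, Smad2, Drap1, Skil and Pmepa1. Cfc1 encodes the other co-receptor of the Cripto family, so that neither co-receptor gene had an assigned peak.

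Of 22 other genes of mesendoderm, anterior endoderm and organizer, 19 had an assigned peak and 17 had it within 5 kb, beside the same 51.4% and 43.5%. Their highest enrichment within 5 kb had a median of 8.17. The leading genes were Frzb, which encodes a secreted Wnt antagonist, and Gata4, an endoderm and heart factor, both with an enrichment of 12. The Frzb peak was centred 371 bp from the TSS and that of Gata4 4410 bp from it. Cxcl12, which encodes the ligand of Cxcr4, had 11.8, beside 4.69 at Cxcr4. The BMP antagonist gene Nog had 9.13 and Fgf8 had 8.98. Dkk1, Hesx1 and Ackr3 had no assigned peak, and those of Evx1 and Shh were beyond 5 kb.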

How the data were processed

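Zeb1 ChIP-seq peaks of mESC in GS were taken from 1 deposited list, made from 3 Zeb1 ChIP libraries and 1 input. The authors trimmed Ion Torrent reads, drew equal numbers per sample, kept unique alignments to mm10 (STAR 2.4.2a per the submitters' processing notes), removed duplicates (Picard 1.136), called broad peaks for each library against the input, unified peaks present in at least 2 libraries and annotated them (HOMER 4.7). The deposited read columns are a signal, the authors' mean reads per peak, not scaled by length. The deposited enrichment is a ratio, treatment against input reads after the authors' scaling for mapped reads. Its lowest value is 2 and the lowest number of treatment reads is 20. The p-value column and expression data were not used here. The list gives no column for a single sample.

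Recomputed from GRCm38.p6, the deposited distances of 10 of the 12 peaks were equal and those of Lefty1 (2161 against 2178 bp) and Lefty2 (906 against 917 bp) close, with positive values downstream of the TSS. The legend of the list gives the opposite sign, and that of the reference was used. Reads per kb were reads divided by peak length. Background shares were taken over all peaks, or over protein-coding RefSeq genes on Chr. 1 to 19, X and Y matched by Entrez ID. Distances and places in a gene are for the transcript the list names for the peak. Whether a gene's start lies inside a peak, and peaks within 50 kb, were taken from the outermost base of the gene in the reference, which can be another start. Motifs were searched on both strands. Repeated words were counted in the reference after a check on simulated sequence. Python 3.11.15, NumPy 2.4.6, pandas 2.3.3 and pysam 0.24.0 were used.

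Named genes were all 10 genes, their peaks, genes of peaks within 50 kb (not reported here for Lefty1 and Lefty2), and up to 5 examples of each of 2 lists by highest enrichment within 5 kb. Other names were chosen after the values were seen. The genes and lists were chosen with earlier results of these data known. Alternatives concerned enrichment, reads, distances, merging and the motif.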

Additional observations from a re-analysis of the deposited data

How the results depend on the processing

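Of 17 alternatives, 14 left the value within 1.5 times for counts, or equal for the median. Genes with an assigned peak ranged from 6 to 10 beside 8, the 10 being reached with any peak within 50 kb of the gene body. The share of all protein-coding genes was not taken for either count, so neither can be set against a background. Around the start sites of protein-coding genes, a median of 1 peak was centred within 50 kb, with quartiles of 0 and 3. A count of 10 in the still wider range around the gene body therefore need not set these genes apart. With an enrichment of at least 5, Lefty1 and Cxcr4 no longer counted. Genes with a peak within 5 kb ranged from 6 to 8. The count was 6 within 1 kb, beside 39.6% of protein-coding genes, and also 6 with an enrichment of at least 5, beside 35.7%. Assigned peaks fell from 12 to 8 with an enrichment of at least 5, which is at the limit of 1.5 times, and came to 9 with at least 40 treatment reads. Over the whole list, 74% of peaks had an enrichment of at least 5 and 65.4% had at least 40 treatment reads. The median enrichment of 6.08 became 6.82 with only the best peak of each gene, which keeps 8 of the 12 peaks, and 3.04 as unscaled treatment over input reads, for which the whole list gave 7.07 and 3.12. The unscaled ratio leaves out the authors' scaling. The listed enrichment divided by this ratio ran from 0.698 to 4.19 over the list, and the part of the scaling in the change was not tested. Peaks with the Zeb1 form went from 10 to 1 in the central 200 bp, where less sequence is searched, and to 7 on the forward strand alone, where 54.4% of the list had it.

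Fits that leave out each library in turn were not run, since the list holds means over libraries. No paired analysis was possible because the result comes from no test and the list holds 1 mean per peak. The 3 distant Gsc peaks rest on 24.5 to 32 treatment reads, below the list's median of 47.4, and genes without an assigned peak can still hold reads that did not reach the authors' minimum.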

Other observations

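An assigned gene is not always the gene whose start site lies under the peak. By the outermost annotated base of each listed gene, the start of Drap1 lay inside a peak assigned to AI837181 (enrichment 6.61), that of Evx1 in a peak of 5730457N03Rik (7.34) and that of Shh in a peak of 9530036O11Rik (5.25), so that these 3 genes had no assigned peak within 5 kb although a peak covered their start. The start sites of Gdf1, Foxh1 and Gata6 were likewise inside peaks of Cers1 (5.89), Ppp1r16a (5.5) and 1010001N08Rik (8.13). The genes named in this paragraph as carrying the assignment were picked with their values known.

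Over the whole promoter table, the share of start sites under a peak differed by CpG content. Classes of observed over expected CpG were chosen after seeing the data and tried in 1 way only. A peak covered the TSS in 3.65% of 13743 promoters with a ratio under 0.3, in 23.7% of 7343 from 0.3 to 0.6, and in 72.8% of 11765 at 0.6 or above. Cer1 and Tdgf1, with no peak, had ratios of 0.308 and 0.545, while Gsc, Lhx1, Hhex and Cxcr4 ranged from 0.767 to 0.961. Nodal had a peak at a ratio of 0.229, in the lowest class. The part of CpG content in these results was not tested. The TSS was covered in 28.6% of promoters with the Zeb1 form and in 33.8% of those without it.

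The mean reads of a peak lay within 0.0006 reads of a whole number divided by a small integer, the same for treatment and input. The divisor was 7 for the peaks of Nodal, Lefty2, Mixl1, Hhex and Cxcr4 and 12 for those over the TSS of Gsc and Lhx1, and 7 was also the most frequent in the list, in 34.7% of peaks. For the Lefty1 peak, the second Lhx1 peak and the Gsc peaks upstream of the gene the divisor was 2, and for the downstream Gsc peak it was 1. The reason for divisors above the 3 libraries is not given in the sources used here.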
